A study of Mus musculus with 5 samples.

Results

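A set of 48 Wnt and R-spondin genes was followed through RNA sequencing of cells sorted from the mouse pancreas. It holds ligands, Frizzled receptors, coreceptors, R-spondin receptors and their ligases, secreted inhibitors, β-catenin with its destruction complex, TCF/LEF factors, and feedback and target genes. The genes were chosen by symbol and not by a measured value, but with earlier results of these data known. Of the 48 genes, 46 had a value in all 5 libraries, among 16992 gene symbols common to them. Lgr6 had a value in 4 libraries, and Dkk1 was not analysed here. The cells were sorted fresh from adult C57BL/6 mice aged 2 to 4 months, and no treatment or engineered allele is labelled in either population. The 3 libraries of CD133(high)CD71(low) cells were set against 2 libraries of CD133(positive)CD71(negative) cells, which is the comparison that the study's design states. Prom1 encodes CD133, a surface glycoprotein found on duct cells among others, and Tfrc encodes CD71, the receptor for transferrin. The labels carry a conflict: the cell-marker field calls the CD133(high)CD71(low) samples CD71 positive, and the titles were followed. Both populations are whole sorted gates, so each can hold several cell types. The labels do not say whether libraries of a population came from different animals or sorts, and each p-value therefore reflects the scatter between these libraries, which could be technical.

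Wnt proteins are secreted lipid-modified ligands that bind a Frizzled receptor together with an LRP coreceptor. Binding stops the destruction complex from degrading β-catenin, which then enters the nucleus and activates genes with TCF/LEF factors. R-spondins act one step upstream: they bind LGR receptors and so remove the ligases RNF43 and ZNRF3, which would otherwise clear Frizzleds from the cell surface. R-spondin is a usual component of the media in which pancreatic duct cells are grown as colonies or organoids.

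Levels are given as RPKM, reads per kilobase of transcript and per 1000000 reads, which can be compared between genes because they are scaled by length. Where several values stand together they are in the order of library 1, 2 and 3 of CD133(high)CD71(low) and of library 1 and 2 of CD133(positive)CD71(negative). Differences subtract the CD133(positive)CD71(negative) mean from the CD133(high)CD71(low) mean after log2(RPKM + 1), with the standard error (SE) of limma's fit and p-values adjusted by Benjamini-Hochberg over all 11769 genes with a mean of at least 1 RPKM. A gene was called at an adjusted p under 0.05. The pseudocount of 1 makes this difference smaller than the ratio of RPKM for genes near 1 RPKM.

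Estimated depth was 31.0 to 41.7 M reads (M, 1e6) in CD133(high)CD71(low) and 19.8 to 25.5 M in CD133(positive)CD71(negative). Prom1 stood at 72.8, 74.7 and 133 RPKM in CD133(high)CD71(low), against 45.8 and 48.8 RPKM in CD133(positive)CD71(negative), a difference that did not pass the limma test (adjusted p = 0.0909). Tfrc stood at 5.34, 6.84 and 12.2 RPKM in CD133(high)CD71(low), against 4.00 and 4.36 RPKM in CD133(positive)CD71(negative), higher in every library but not called (limma adjusted p = 0.151). CD133(high)CD71(low) library 3 stood apart, and its table uses other gene models. Its variance against libraries 1 and 2 was 23.8 and 18.5 times that of read sampling, against 2.86 between libraries 1 and 2. Set against the 2 CD133(positive)CD71(negative) libraries, the same measure was 18.4 and 14.9 for library 1, and 16.6 and 13.9 for library 2. By this measure libraries 1 and 2 lay farther from library 3 of their own population than from the other population. The measure grows with depth, and library 3 was the deepest, at an estimated 41.7 M reads. The Pearson correlation across genes of library 1 was 0.9109 with library 3, against 0.9259 and 0.9335 with the 2 CD133(positive)CD71(negative) libraries. For library 2 it was 0.920 with library 3, against 0.9178 and 0.925, so by correlation library 3 was not the farthest from library 2. The 18 acinar markers had by far the largest sum, at 228100, 229500 and 107400 RPKM in CD133(high)CD71(low), against 272800 and 245700 RPKM in CD133(positive)CD71(negative). Duct epithelium markers, including Krt19 and Sox9, were present in both populations, and their 19 genes summed to 5785, 5782 and 7940 RPKM in CD133(high)CD71(low), against 3903 and 4204 RPKM in CD133(positive)CD71(negative). The 19 endocrine markers summed to 1604, 1864 and 606 RPKM in CD133(high)CD71(low), against 1870 and 1699 RPKM in CD133(positive)CD71(negative). The 22 leukocyte markers summed to 49.0 to 92.1 RPKM in CD133(high)CD71(low), against 1854 to 1883 RPKM in CD133(positive)CD71(negative). The 19 endothelial markers summed to 147 to 327 RPKM in CD133(high)CD71(low), against 1037 to 1111 RPKM in CD133(positive)CD71(negative). The 19 mesenchymal and stellate markers summed to 171 to 188 RPKM in CD133(high)CD71(low), against 407 to 425 RPKM in CD133(positive)CD71(negative). No leukocyte, endothelial or mesenchymal marker was listed at 0 in any library. In bulk RNA, fewer cells of a type and less RNA per cell cannot be told apart.

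Most genes of the set that could be tested lay somewhat higher in CD133(high)CD71(low) cells, as did most genes of the transcriptome, while a Frizzled and a TCF factor were lower. Of the 46 genes, 31 averaged at least 1 RPKM and were tested, and 6 of these were called higher: Wnt4, Wnt7b, Fzd1, Fzd5, Fzd8 and Tnfrsf19. Over all genes tested, 6.25% were called higher. Fzd4 and Tcf7 were called lower, and 7.22% of all genes were. The remaining 23 genes were not called in either direction. The populations did not overlap for 29 of the 31 genes, and for 70.2% of all genes tested. For 26 of them all CD133(high)CD71(low) values were the higher ones, as for 58.2% of all genes tested. For 3 genes, Fzd4, Fzd6 and Tcf7, they were the lower ones, as for 12.0% of all genes tested. Among the 15 genes below a mean of 1 RPKM, CD133(high)CD71(low) was higher throughout for 3 and lower throughout for 9, which makes 29 and 12 of all 46. The matching shares over all genes below 1 RPKM were not determined, so these counts show nothing particular to the set. The median difference was 0.46 over the 31 genes and 0.31 over all genes tested. Wnt9a, Fzd3 and Tcf7 reached the 1 RPKM mean only through the population in which they are higher. The summed duct markers were higher in the same libraries as the 6 genes called higher, and their part in those calls was not tested.

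The number of calls changed with each library left out. Without library 3, 18 of 30 genes were called higher and 4 lower, where 40.9% and 12.2% of all genes were called. The calls gained were Wnt5b, Wnt9a, Fzd2, Fzd7, Lrp5, Lrp6, Ror2, Lgr4, Rnf43, Znrf3, Ctnnb1 and Axin1, higher, and Fzd6 and Sfrp5, lower. Without CD133(high)CD71(low) library 1, Tnfrsf19 was called higher and Fzd4 and Tcf7 lower. Without library 2, Fzd4 was called lower and none was called higher (13 were at an unadjusted limma p under 0.05, as were 20.9% of all genes). Without CD133(positive)CD71(negative) library 1 no gene was called (6 higher and 2 lower at an unadjusted p under 0.05, where 6.70% and 6.71% of all genes were). None was called without library 2 of that population either (9 higher and 1 lower at an unadjusted p under 0.05, where 11.7% and 6.60% of all genes were). Scaling the libraries by the median of ratios took the median of all genes to 0.06, and 3 genes were then called higher and 2 lower, where 2.65% and 9.26% of all genes were. With scaling and without library 3, 12 genes were called higher and 4 lower, where 15.2% and 16.5% of all genes were. Fzd5 and Tnfrsf19 were called higher, and Fzd4 and Tcf7 lower, in 4 fits: the fit of the deposited values, the scaled fit, the fit without library 3, and the fit with both changes.

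**Figure D1:**
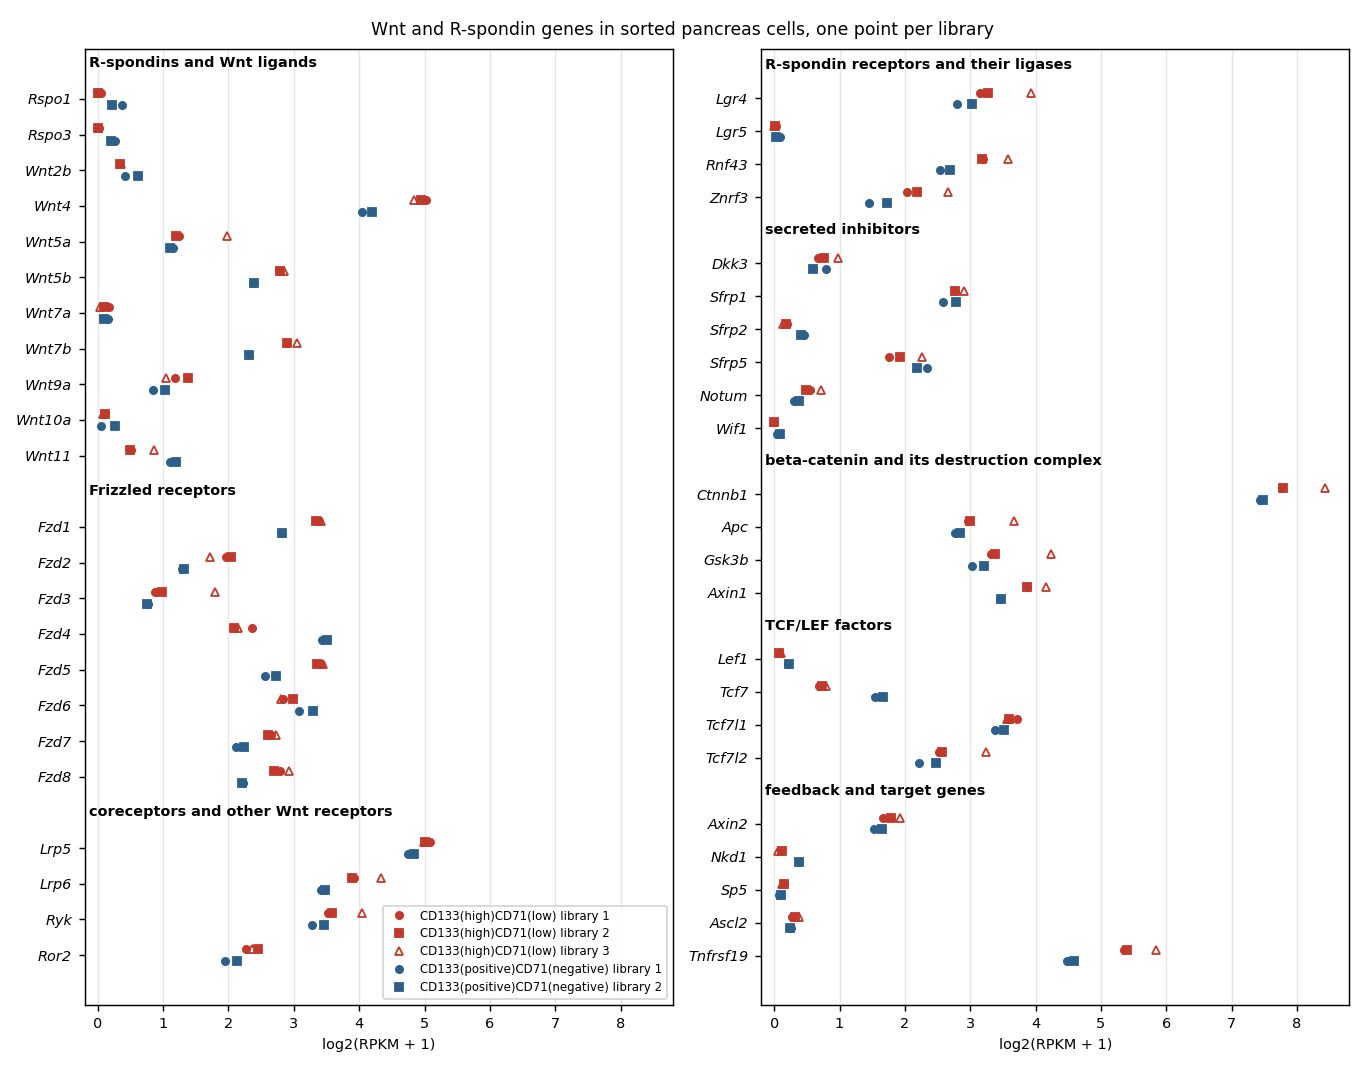
Level of each of the 46 Wnt and R-spondin genes in each library, on a log2(RPKM + 1) axis, ordered by role. Red marks are CD133(high)CD71(low) libraries, with library 3 as an open triangle, and blue marks are CD133(positive)CD71(negative) libraries. Ctnnb1 and Tnfrsf19 lie farthest right, Fzd4 and Tcf7 have their blue marks to the right of the red ones, and the R-spondins lie near 0.

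**Figure D2:**
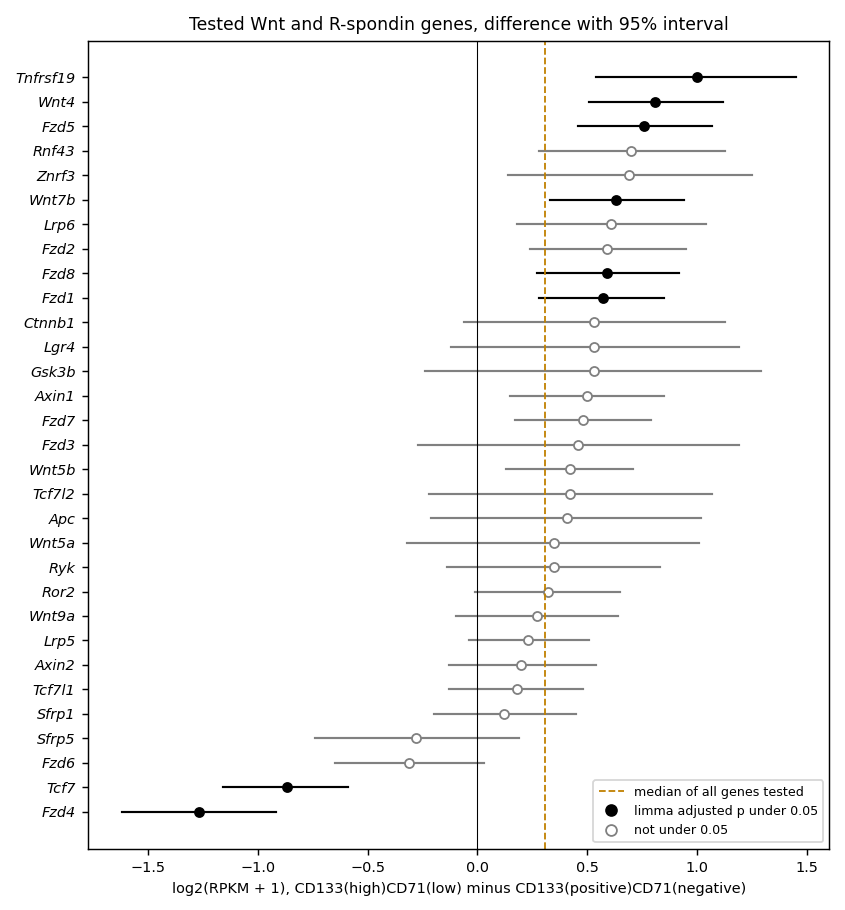
Difference of each tested gene after log2(RPKM + 1), with its 95% interval from limma, positive where CD133(high)CD71(low) is higher than CD133(positive)CD71(negative). Filled points have an adjusted p under 0.05 and the dashed line is the median of all genes tested, 0.31. Fzd4 and Tcf7 lie far left of both lines, and Tnfrsf19 lies farthest right at 1.00.

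Wnt4 was the most abundant Wnt ligand in every library, and it was higher in CD133(high)CD71(low) cells together with Wnt7b. Of the 11 ligand genes, 5 were tested, 2 were called higher and none lower. Wnt4 (chr4:137277489-137299726, plus strand, mm10), a ligand needed for epithelium formation in kidney and for the female reproductive tract, stood at 31.4, 30.0 and 27.6 RPKM in CD133(high)CD71(low), against 15.6 and 17.3 RPKM in CD133(positive)CD71(negative). The groups were well separated, with a difference of 0.81 ± 0.12 (SE, limma adjusted p = 0.0133), 0.50 above the all-gene median. Without library 3 the difference was 0.86 (adjusted p = 4.87e-05), and with scaling it was 0.53 and was not called (adjusted p = 0.117). Wnt7b (chr15:85535437-85582473, minus strand), a ligand of epithelia in lung and kidney, stood at 6.43, 6.48 and 7.27 RPKM in CD133(high)CD71(low), against 4.00 and 3.95 RPKM in CD133(positive)CD71(negative). All CD133(high)CD71(low) libraries were higher, by 0.63 ± 0.12 (SE, limma adjusted p = 0.0284), and with scaling the adjusted p was 0.0619.

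Wnt5b, a ligand that often signals without β-catenin, stood at 5.82, 5.90 and 6.22 RPKM in CD133(high)CD71(low), against 4.18 and 4.23 RPKM in CD133(positive)CD71(negative). The groups did not overlap, but the difference of 0.42 (95% interval 0.13 to 0.71) missed the threshold (limma adjusted p = 0.0689). Its relative Wnt5a stood at 1.36, 1.29 and 2.96 RPKM in CD133(high)CD71(low), against 1.21 and 1.14 RPKM in CD133(positive)CD71(negative). Only library 3 stood clear of the rest for Wnt5a, and the interval of the difference, -0.32 to 1.01, spans 0. Wnt9a was near 1 RPKM in both, at 1.27, 1.60 and 1.07 RPKM in CD133(high)CD71(low), against 0.792 and 1.05 RPKM in CD133(positive)CD71(negative), and was not called (limma adjusted p = 0.224).

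The other ligands were below the mean of 1 RPKM. Wnt11, a ligand of the planar polarity branch, had 0.426, 0.407 and 0.823 RPKM in CD133(high)CD71(low), against 1.15 and 1.28 RPKM in CD133(positive)CD71(negative). It was lower in every CD133(high)CD71(low) library, and its share of the summed RPKM of the 9 Wnt ligands was 0.902, 0.883 and 1.78% in CD133(high)CD71(low), against 4.21 and 4.31% in CD133(positive)CD71(negative). Wnt2b lay between 0.262 and 0.280 RPKM in CD133(high)CD71(low), against 0.329 and 0.536 RPKM in CD133(positive)CD71(negative). Wnt7a and Wnt10a stayed at or below 0.206 RPKM in every library, and their groups overlapped.

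Transcripts of the R-spondins themselves were scarce in both populations. Rspo1 had 0.0341 RPKM in CD133(high)CD71(low) library 1 and was listed at 0 in libraries 2 and 3, against 0.299 and 0.165 RPKM in CD133(positive)CD71(negative). Rspo3 had 0.0130 RPKM in CD133(high)CD71(low) library 1 and was listed at 0 in libraries 2 and 3, against 0.196 and 0.147 RPKM in CD133(positive)CD71(negative). By the estimated depth and the longest coding transcript, these levels are about 2, 0 and 0 reads of Rspo1 in CD133(high)CD71(low), against about 14 and 6 reads in CD133(positive)CD71(negative). For Rspo3 they are about 1, 0 and 0 reads in CD133(high)CD71(low), against about 15 and 9 reads in CD133(positive)CD71(negative). Both were called lower when no filter on level was used (limma adjusted p = 0.0273 for Rspo1 and adjusted p = 0.00871 for Rspo3, where 10.3% of all genes were called lower). The mesenchymal and stellate marker sums given above were lower in the same libraries. Sparc and Vim carry most of these sums, and the size of the difference varied between the genes. Sparc averaged 78.8 RPKM in CD133(high)CD71(low) and 154 RPKM in CD133(positive)CD71(negative), and Col1a1 averaged 0.606 and 5.62 RPKM. Of the 19 genes, 17 were lower in every CD133(high)CD71(low) library and 2 overlapped. The part of these markers in the differences of Rspo1 and Rspo3 was not tested.

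**Figure D3:**
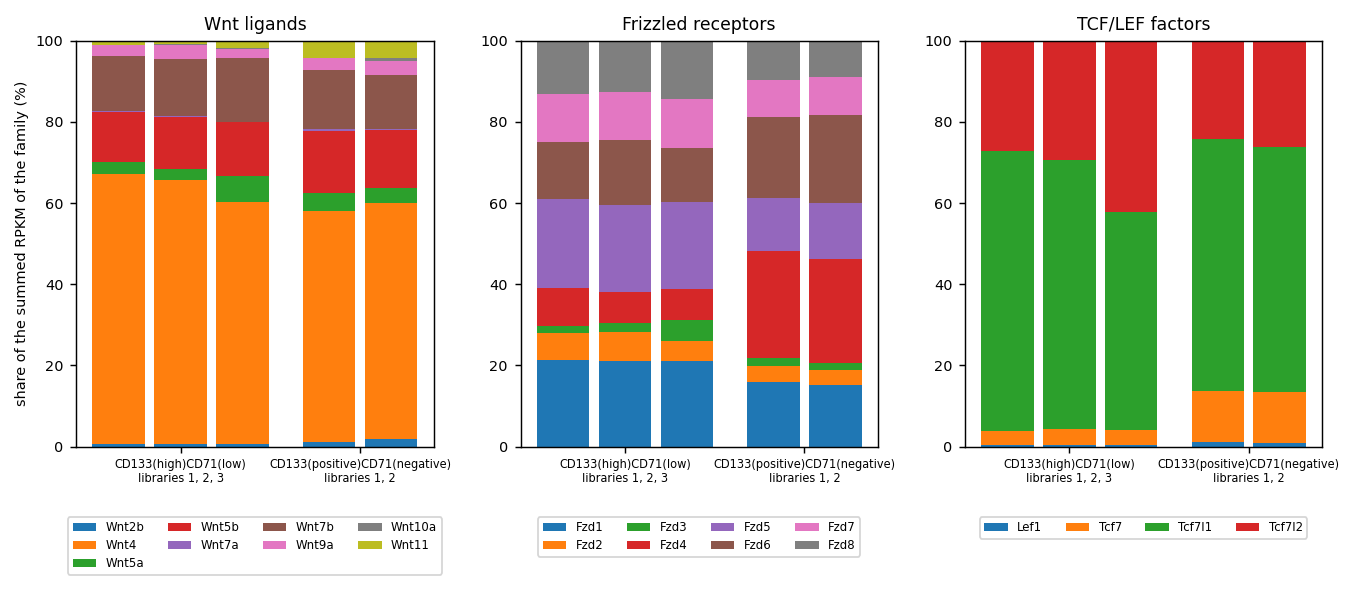
Share in percent of each gene in the summed RPKM of its family, one stacked bar per library, for 9 Wnt ligands, 8 Frizzleds and 4 TCF/LEF factors. Wnt4 takes 59.6 to 66.6% of the ligands in CD133(high)CD71(low) and 56.8 to 58.1% in CD133(positive)CD71(negative), and Fzd4 takes 7.44 to 9.33% of the Frizzleds in CD133(high)CD71(low) and 25.6 to 26.3% in CD133(positive)CD71(negative).

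The summed level of the 9 Wnt ligands was 47.2, 46.1 and 46.3 RPKM in CD133(high)CD71(low), against 27.4 and 29.8 RPKM in CD133(positive)CD71(negative). Wnt4 made up 66.6, 65.1 and 59.6% of it in CD133(high)CD71(low), against 56.8 and 58.1% in CD133(positive)CD71(negative). Wnt5b and Wnt7b came next in every library, with Wnt7b ahead in CD133(high)CD71(low) and Wnt5b ahead in CD133(positive)CD71(negative). Each took 12.3 to 15.7% of the sum in every library.

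The Frizzled receptors changed places between the populations. Fzd1, Fzd5 and Fzd8 were called higher in CD133(high)CD71(low) cells, Fzd4 was called lower, and Fzd2, Fzd3, Fzd6 and Fzd7 were not called. Fzd4 (chr7:89404355-89413134, plus strand), a receptor for Wnts and for the ligand norrin that is known for its role in blood vessels, stood at 4.14, 3.23 and 3.42 RPKM in CD133(high)CD71(low), against 9.78 and 10.3 RPKM in CD133(positive)CD71(negative). The groups were far apart, with a mean of 3.60 ± 0.48 RPKM in CD133(high)CD71(low) and 10.1 ± 0.39 RPKM in CD133(positive)CD71(negative) (SD, n = 3 and 2). The difference was -1.27 ± 0.14 (SE, limma adjusted p = 0.00521), -1.58 relative to the all-gene median, and it was -1.52 with scaling (adjusted p = 0.00366) and -1.25 without library 3 (adjusted p = 1.95e-05). The endothelial marker Pecam1 stood at 25.5, 15.1 and 9.17 RPKM in CD133(high)CD71(low), against 99.7 and 88.6 RPKM in CD133(positive)CD71(negative), and its part in the difference of Fzd4 was not tested.

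Fzd5 (chr1:64730558-64737751, minus strand), a receptor with a role in intestinal Paneth cells, stood at 9.70, 9.20 and 9.95 RPKM in CD133(high)CD71(low), against 4.91 and 5.61 RPKM in CD133(positive)CD71(negative). The groups did not overlap and lay the other way from those of Fzd4, by 0.76 ± 0.12 (SE, limma adjusted p = 0.0168), and it was also called with scaling (0.51, adjusted p = 0.0418). The ratio of Fzd5 to Fzd4 was 2.34, 2.85 and 2.91 in CD133(high)CD71(low), against 0.502 and 0.543 in CD133(positive)CD71(negative). This ratio is taken within a library and is not altered by scaling between libraries. Fzd5 was the most abundant of the 8 Frizzleds in each CD133(high)CD71(low) library and had rank 4 in both CD133(positive)CD71(negative) libraries. Fzd4 had rank 6 in each CD133(high)CD71(low) library and was the most abundant in both CD133(positive)CD71(negative) libraries.

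The sequences upstream of Fzd5 and Fzd4 are shown because these receptors were called in opposite directions, and that of Sp5, a textbook β-catenin target described further on, because it carries the TCF core. Each run covers 200 bases, from 250 to 51 bases before the start that RefSeq annotates on GRCm38.p6, read in the direction of the gene. Capitals mark CTTTGA or its reverse complement TCAAAG, the core of the TCF/LEF binding motif, searched on both strands.
Fzd5, chr1:64737801-64738000, minus strand: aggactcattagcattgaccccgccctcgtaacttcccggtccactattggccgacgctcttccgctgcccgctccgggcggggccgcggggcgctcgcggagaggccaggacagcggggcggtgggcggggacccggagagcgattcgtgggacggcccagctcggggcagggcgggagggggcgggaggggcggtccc
Fzd4, chr7:89404116-89404315, plus strand: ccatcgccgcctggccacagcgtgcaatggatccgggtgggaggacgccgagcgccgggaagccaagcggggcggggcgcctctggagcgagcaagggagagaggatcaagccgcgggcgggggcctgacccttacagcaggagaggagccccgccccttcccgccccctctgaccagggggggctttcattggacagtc
Sp5, chr2:70474673-70474872, plus strand: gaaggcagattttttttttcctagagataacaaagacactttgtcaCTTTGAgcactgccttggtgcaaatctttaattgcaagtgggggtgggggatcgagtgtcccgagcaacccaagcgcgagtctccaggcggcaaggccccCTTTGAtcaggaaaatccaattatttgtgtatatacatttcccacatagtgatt

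The Fzd5 and Fzd4 windows are rich in G and C, at 76.4 and 72.8% over the full 250 bases, with 32 and 25 CpG dinucleotides, and neither holds the 6 letters searched. The Sp5 window is at 46.0% with 6 CpG dinucleotides and holds the core at 204 and at 104 bases before the start. Windows were at hand for 31 of the 48 genes, 42 windows in all because some genes have several starts. The core was found in 8 of the 42 windows, and in 13.8% of the 32851 mouse windows of this length, of which 1.37% hold it more than once. Among the 5 feedback and target genes, Sp5 and Tnfrsf19 have a window with the core, and the windows of Axin2, Nkd1 and Ascl2 do not hold it. The window of Fzd1 holds it as well. A match describes these letters and does not show binding.

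Fzd1 (chr5:4753839-4758035, minus strand), a β-catenin pathway receptor, stood at 9.47, 9.07 and 9.65 RPKM in CD133(high)CD71(low), against 5.97 and 6.08 RPKM in CD133(positive)CD71(negative). Replicates lay close together, and the difference was 0.57 ± 0.11 (SE, limma adjusted p = 0.031). Fzd8, a receptor that binds several Wnts with high affinity, stood at 5.89, 5.50 and 6.61 RPKM in CD133(high)CD71(low), against 3.65 and 3.62 RPKM in CD133(positive)CD71(negative). This was a difference of 0.59 ± 0.13 (SE, limma adjusted p = 0.0401). Neither Fzd1 nor Fzd8 was called with scaling (adjusted p = 0.161 and adjusted p = 0.0766), and both were called without library 3 with or without scaling.

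Fzd7, a receptor of embryonic and gut stem cells, stood at 5.27, 5.06 and 5.63 RPKM in CD133(high)CD71(low), against 3.33 and 3.72 RPKM in CD133(positive)CD71(negative). Fzd2 stood at 2.88, 3.09 and 2.28 RPKM in CD133(high)CD71(low), against 1.45 and 1.50 RPKM in CD133(positive)CD71(negative). Both had groups that did not overlap and missed the threshold (limma adjusted p = 0.0594 for Fzd7 and adjusted p = 0.0514 for Fzd2), and both were called higher without library 3. Fzd6, a receptor of the planar polarity branch, stood at 6.14, 6.91 and 6.01 RPKM in CD133(high)CD71(low), against 7.46 and 8.79 RPKM in CD133(positive)CD71(negative). It was lower in every CD133(high)CD71(low) library without a call (limma adjusted p = 0.157), and was called lower without library 3 (adjusted p = 0.0497). Fzd3 stood at 0.841, 0.981 and 2.47 RPKM in CD133(high)CD71(low), against 0.708 and 0.680 RPKM in CD133(positive)CD71(negative), and its high mean in CD133(high)CD71(low) rests on library 3.

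The summed level of the 8 Frizzleds differed less than its make-up: 44.3, 43.0 and 46.0 RPKM in CD133(high)CD71(low), against 37.2 and 40.3 RPKM in CD133(positive)CD71(negative). Fzd4 held 9.33, 7.50 and 7.44% of the sum in CD133(high)CD71(low), against 26.3 and 25.6% in CD133(positive)CD71(negative). Fzd5 held 21.9, 21.4 and 21.6% in CD133(high)CD71(low), against 13.2 and 13.9% in CD133(positive)CD71(negative). Shares move together because they add to the whole, so a lower share of Fzd4 raises those of the others.

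None of the 4 coreceptors and other Wnt receptors was called (1 was higher at an unadjusted limma p under 0.05, as were 27.5% of all genes tested). Lrp5, a coreceptor of the β-catenin branch, stood at 33.1, 31.0 and 30.7 RPKM in CD133(high)CD71(low), against 25.9 and 27.6 RPKM in CD133(positive)CD71(negative). Its close relative Lrp6 stood at 14.2, 13.8 and 19.2 RPKM in CD133(high)CD71(low), against 9.63 and 10.1 RPKM in CD133(positive)CD71(negative). All CD133(high)CD71(low) libraries were above the others, by 0.23 (95% interval -0.04 to 0.51) for Lrp5 and 0.61 (0.18 to 1.04) for Lrp6. Ryk, a Wnt receptor related to tyrosine kinases, stood at 10.5, 11.0 and 15.5 RPKM in CD133(high)CD71(low), against 8.74 and 10.0 RPKM in CD133(positive)CD71(negative). Ror2, a Wnt5a receptor, stood at 3.83, 4.45 and 4.12 RPKM in CD133(high)CD71(low), against 2.86 and 3.38 RPKM in CD133(positive)CD71(negative). Both lay higher in every CD133(high)CD71(low) library, with intervals that reached below 0, -0.14 to 0.83 for Ryk and -0.01 to 0.65 for Ror2.

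Lgr4 was the LGR receptor of both populations, and Lgr5 was near the limit of detection in both. Lgr4 (chr2:109917647-110014257, plus strand) stood at 7.84, 8.63 and 14.2 RPKM in CD133(high)CD71(low), against 5.94 and 7.16 RPKM in CD133(positive)CD71(negative). Every CD133(high)CD71(low) library was higher, with library 3 far above the others, and the difference of 0.53 had an interval of -0.12 to 1.19 (limma adjusted p = 0.189). Lgr5 (chr10:115450311-115587780, minus strand), the stem cell marker of the intestinal crypt, had 0.0199 and 0.00688 RPKM in CD133(high)CD71(low) libraries 1 and 2 and was listed at 0 in library 3, against 0.0583 and 0.0214 RPKM in CD133(positive)CD71(negative). These are about 3, 1 and 0 reads in CD133(high)CD71(low), against about 7 and 2 reads in CD133(positive)CD71(negative), too few to compare the populations. Lgr6 was listed at 0 in CD133(high)CD71(low) libraries 1 and 2 and had 0.0325 and 0.0278 RPKM in CD133(positive)CD71(negative). Lgr4 made up 99.0 to 99.9% of the summed RPKM of Lgr4 and Lgr5 in the 4 numbered libraries.

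The ligases that R-spondins remove, and which are themselves β-catenin targets in the intestine, lay higher in every CD133(high)CD71(low) library and were not called in the fit of the deposited values. Rnf43 (chr11:87662722-87735539, plus strand) stood at 8.20, 8.06 and 10.9 RPKM in CD133(high)CD71(low), against 4.82 and 5.45 RPKM in CD133(positive)CD71(negative). Its difference of 0.70 ± 0.17 (SE) missed the threshold (limma adjusted p = 0.0525), passed it with scaling (0.45, adjusted p = 0.0358) and passed it without library 3 (0.58, adjusted p = 0.00103). Znrf3 (chr11:5276324-5444847, minus strand) stood at 3.09, 3.52 and 5.30 RPKM in CD133(high)CD71(low), against 1.74 and 2.32 RPKM in CD133(positive)CD71(negative). Its difference of 0.69 ± 0.22 (SE) was not called (limma adjusted p = 0.0938) and was called without library 3 (0.51, adjusted p = 0.00696). The ratio of Lgr4 to Rnf43 was 0.956, 1.07 and 1.29 in CD133(high)CD71(low), against 1.23 and 1.31 in CD133(positive)CD71(negative), with overlapping populations. The ratio of Lgr4 to Znrf3 was 2.54, 2.45 and 2.68 in CD133(high)CD71(low), against 3.41 and 3.09 in CD133(positive)CD71(negative), and was lower in every CD133(high)CD71(low) library.

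Secreted inhibitors showed no call among the 2 genes tested, and none at an unadjusted limma p under 0.05. Sfrp1, a decoy that binds Wnts outside the cell, stood at 5.83, 5.81 and 6.46 RPKM in CD133(high)CD71(low), against 5.01 and 5.90 RPKM in CD133(positive)CD71(negative). The populations overlapped, and the interval of the difference was -0.20 to 0.45. Sfrp5, a decoy of the same family, stood at 2.38, 2.81 and 3.82 RPKM in CD133(high)CD71(low), against 4.05 and 3.56 RPKM in CD133(positive)CD71(negative). Library 3 alone overlapped with the other population, and without it Sfrp5 was called lower (-0.42, limma adjusted p = 0.0107). The ratio of Wnt4 to Sfrp1, the most abundant ligand and decoy, was 5.39, 5.16 and 4.27 in CD133(high)CD71(low), against 3.11 and 2.93 in CD133(positive)CD71(negative).

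The other inhibitors were below 1 RPKM. Sfrp2 had 0.141, 0.130 and 0.0953 RPKM in CD133(high)CD71(low), against 0.372 and 0.328 RPKM in CD133(positive)CD71(negative). These are about 9, 8 and 8 reads in CD133(high)CD71(low), against about 19 and 13 reads in CD133(positive)CD71(negative). Sfrp2 was called lower when no filter on level was used (limma adjusted p = 0.01), as were 10.3% of all genes. Notum, an enzyme that strips the lipid from Wnts, had 0.464, 0.401 and 0.646 RPKM in CD133(high)CD71(low), against 0.233 and 0.300 RPKM in CD133(positive)CD71(negative). Notum was thus higher in every CD133(high)CD71(low) library, and Sfrp2 lower in every one. Dkk3, a relative of the LRP inhibitors, lay between 0.511 and 0.973 RPKM with overlapping groups. Wif1 was listed at 0 in all 3 CD133(high)CD71(low) libraries and had 0.0350 and 0.0674 RPKM in CD133(positive)CD71(negative), about 2 and 3 reads.

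β-Catenin was by far the most abundant gene of its group in both populations, and none of the 4 genes was called (1 was higher at an unadjusted limma p under 0.05, against 27.5% of all genes tested). Ctnnb1, which encodes β-catenin, was the most abundant gene of the set in every library, at 217, 220 and 342 RPKM in CD133(high)CD71(low), against 173 and 177 RPKM in CD133(positive)CD71(negative). Library 3 stood far above the rest, and the difference of 0.53 (95% interval -0.06 to 1.13) became 0.32 without it and was then called (limma adjusted p = 0.00698). The scaffold Axin1 stood at 13.5, 13.6 and 16.9 RPKM in CD133(high)CD71(low), against 9.97 and 10.1 RPKM in CD133(positive)CD71(negative). The kinase Gsk3b stood at 8.92, 9.43 and 17.8 RPKM in CD133(high)CD71(low), against 7.13 and 8.22 RPKM in CD133(positive)CD71(negative). Apc, the tumour suppressor of the complex, stood at 6.83, 6.94 and 11.8 RPKM in CD133(high)CD71(low), against 5.82 and 6.16 RPKM in CD133(positive)CD71(negative). All 4 genes lay above the other population in every CD133(high)CD71(low) library, and for Gsk3b and Apc libraries 1 and 2 were close to it.

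Of the TCF/LEF factors, Tcf7 was lower in CD133(high)CD71(low) cells and the 2 most abundant ones were not called. Tcf7 (chr11:52252371-52283014, minus strand), which encodes TCF1, a factor abundant in T lymphocytes, stood at 0.600, 0.666 and 0.730 RPKM in CD133(high)CD71(low), against 1.91 and 2.19 RPKM in CD133(positive)CD71(negative). The groups were far apart, with a difference of -0.87 ± 0.11 (SE, limma adjusted p = 0.00889), -1.18 relative to the all-gene median. It was -1.04 with scaling (adjusted p = 0.00268) and -0.90 without library 3 (adjusted p = 0.000172). Tcf7 reached the 1 RPKM mean, and so the test, only through CD133(positive)CD71(negative). Lef1, also abundant in lymphocytes, had 0.0509, 0.0527 and 0.0729 RPKM in CD133(high)CD71(low), against 0.160 and 0.164 RPKM in CD133(positive)CD71(negative). The T cell receptor component Cd3e had 0.131, 0.135 and 0.249 RPKM in CD133(high)CD71(low), against 0.546 and 0.456 RPKM in CD133(positive)CD71(negative). Ptprc, the leukocyte antigen CD45, had 0.477, 0.417 and 0.291 RPKM in CD133(high)CD71(low), against 9.77 and 10.3 RPKM in CD133(positive)CD71(negative). The leukocyte genes were thus lower in the same libraries as Tcf7 and Lef1, and their part in these differences was not tested.

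**Figure D4:**
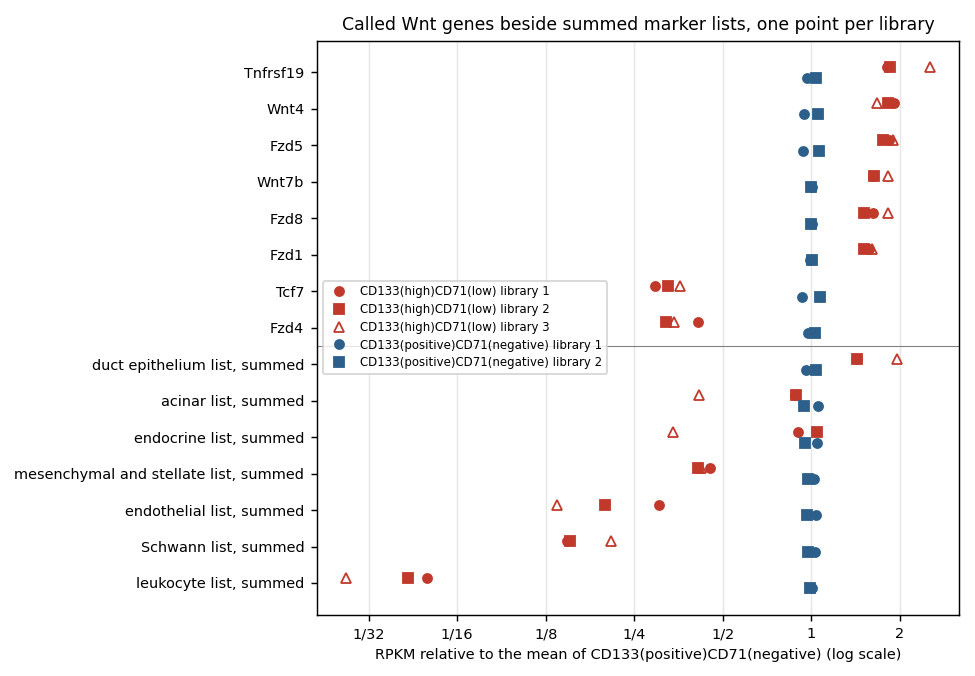
RPKM of the 8 called genes, above the line, and summed RPKM of marker lists, below it, each relative to the mean of CD133(positive)CD71(negative) on a log axis. Red marks are CD133(high)CD71(low) libraries and blue marks CD133(positive)CD71(negative) libraries. The leukocyte list lies farthest left, Fzd4 and Tcf7 lie left of 1/2 beside the mesenchymal list, and the duct list lies right of 1 with the 6 genes called higher. Sparc and Vim carry most of the mesenchymal sum.

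Tcf7l1, usually a repressor of β-catenin targets, stood at 12.1, 11.1 and 10.8 RPKM in CD133(high)CD71(low), against 9.35 and 10.4 RPKM in CD133(positive)CD71(negative). Tcf7l2, the main TCF of the intestine, stood at 4.74, 4.91 and 8.41 RPKM in CD133(high)CD71(low), against 3.66 and 4.56 RPKM in CD133(positive)CD71(negative). Neither was called (limma adjusted p = 0.307 for Tcf7l1 and adjusted p = 0.252 for Tcf7l2). Tcf7 held 3.44, 3.98 and 3.66% of the summed RPKM of the 4 factors in CD133(high)CD71(low), against 12.7 and 12.6% in CD133(positive)CD71(negative).

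Of the 5 feedback and target genes, 2 were tested, and Tnfrsf19 was called higher. Tnfrsf19 (chr14:60963875-61046490, minus strand), known as Troy, a receptor that is a Wnt target and marks stem cells in the intestine, stood at 40.0, 41.1 and 56.3 RPKM in CD133(high)CD71(low), against 21.4 and 23.0 RPKM in CD133(positive)CD71(negative). It had rank 2 of the 46 genes in every CD133(high)CD71(low) library and rank 3 in both others, and its difference of 1.00 ± 0.18 (SE, limma adjusted p = 0.0243) was the largest upward one among the 31 genes. It was 0.71 with scaling (adjusted p = 0.0122) and 0.84 without library 3 (adjusted p = 3.85e-05). Axin2, the most widely used readout of β-catenin signalling, stood at 2.18, 2.46 and 2.80 RPKM in CD133(high)CD71(low), against 1.89 and 2.14 RPKM in CD133(positive)CD71(negative). The groups of Axin2 came close to touching, and its difference of 0.20 (95% interval -0.13 to 0.54, limma adjusted p = 0.282) was not called in any fit.

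The other target genes were near the limit of detection. Nkd1, a feedback inhibitor that acts on Dishevelled, had 0.0798, 0.0903 and 0.0387 RPKM in CD133(high)CD71(low), against 0.300 and 0.304 RPKM in CD133(positive)CD71(negative). These are about 10, 11 and 7 reads in CD133(high)CD71(low), against about 31 and 25 reads in CD133(positive)CD71(negative). Nkd1 was called lower when no filter on level was used (limma adjusted p = 0.00675), as were 10.3% of all genes. Sp5, a transcription factor induced by β-catenin in embryos, had 0.104, 0.108 and 0.0908 RPKM in CD133(high)CD71(low), against 0.0561 and 0.0721 RPKM in CD133(positive)CD71(negative). These levels of Sp5 are about 7, 7 and 8 reads in CD133(high)CD71(low), against about 3 and 3 reads in CD133(positive)CD71(negative). Ascl2, a factor of intestinal stem cells, had 0.213, 0.241 and 0.297 RPKM in CD133(high)CD71(low), against 0.195 and 0.188 RPKM in CD133(positive)CD71(negative). Nkd1 was thus lower, and Sp5 and Ascl2 were slightly higher, in every CD133(high)CD71(low) library.

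**Figure D5:**
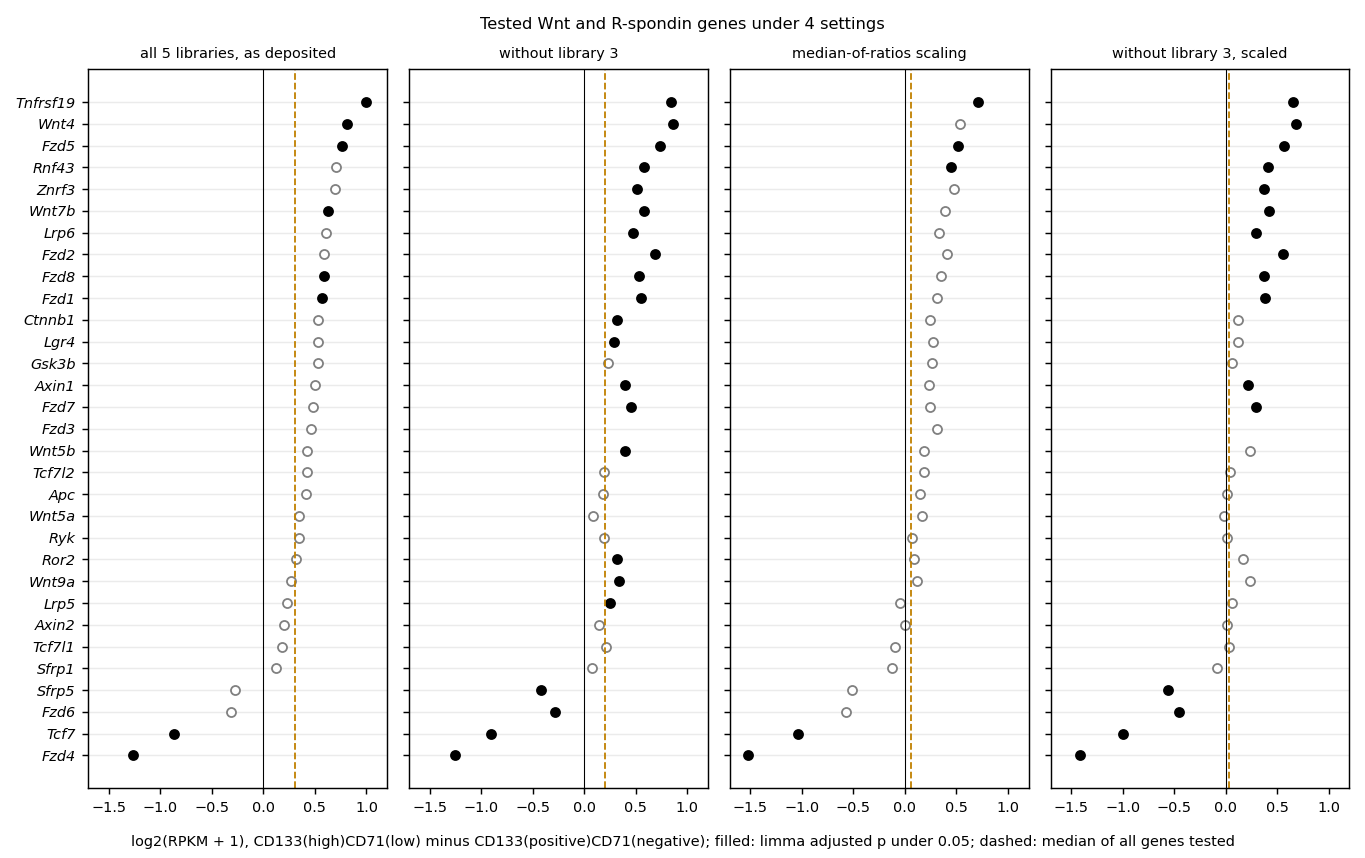
Difference of each tested gene after log2(RPKM + 1), positive where CD133(high)CD71(low) is higher than CD133(positive)CD71(negative), in 4 fits: deposited values of 5 libraries, without CD133(high)CD71(low) library 3, with median-of-ratios scaling, and with both. Filled points have an adjusted limma p under 0.05 and the dashed line is the median of all genes tested, which runs from 0.31 in the first fit to 0.03 in the last. Fzd4 and Tcf7 are filled at the left, and Tnfrsf19 and Fzd5 at the right, in every panel, while Fzd3 was not tested without library 3.

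Beyond these genes, 131 further genes of the pathway were grouped by role, and 114 of them had a value in all libraries. Of the 87 tested, 10 were called higher and 4 lower, with a median difference of 0.36. Over all genes tested 6.25% were called higher and 7.22% lower, with a median of 0.31, and the counts by role below stand against these shares. Wls, the carrier that brings Wnts to the cell surface, was the only one of 6 secretion genes called. It stood at 17.9, 18.9 and 19.3 RPKM in CD133(high)CD71(low), against 12.6 and 11.4 RPKM in CD133(positive)CD71(negative) (limma adjusted p = 0.0272). Of 9 other receptors and coreceptors, 3 were called higher and 1 lower. Ror1, a Wnt5a receptor, stood at 10.4, 10.4 and 11.2 RPKM in CD133(high)CD71(low), against 4.89 and 5.58 RPKM in CD133(positive)CD71(negative), and Ptk7, a receptor related to tyrosine kinases, averaged 14.3 ± 0.23 RPKM in CD133(high)CD71(low) and 8.50 ± 0.48 RPKM in CD133(positive)CD71(negative) (SD, n = 3 and 2). Gpr124, a coreceptor for Wnt7 ligands on brain endothelium, was lower, at 1.42, 0.904 and 0.814 RPKM in CD133(high)CD71(low), against 4.07 and 3.83 RPKM in CD133(positive)CD71(negative) (limma adjusted p = 0.00827). Of 4 other inhibitors, none was called higher and Igfbp4 was called lower, at 12.8, 7.23 and 4.46 RPKM in CD133(high)CD71(low), against 43.2 and 39.4 RPKM in CD133(positive)CD71(negative). Of the 7 other ligand genes with values, none reached 1 RPKM, and Wnt6 was listed at 0 in all 3 CD133(high)CD71(low) libraries, against 0.379 and 0.414 RPKM in CD133(positive)CD71(negative). The R-spondin gene Rspo4 had 0.0302 to 0.0546 RPKM in CD133(high)CD71(low), against 0.149 RPKM in both CD133(positive)CD71(negative) libraries.

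None of 22 Dishevelled and destruction complex genes was called (6 were higher at an unadjusted limma p under 0.05, against 27.5% of all genes tested). The most abundant of them, the phosphatase subunit Ppp2r1a, averaged 69.8 ± 3.81 RPKM in CD133(high)CD71(low) and 51.5 ± 4.00 RPKM in CD133(positive)CD71(negative) (SD, n = 3 and 2). Next was the kinase gene Csnk1a1, at 35.2, 39.5 and 60.5 RPKM in CD133(high)CD71(low), against 32.4 and 35.5 RPKM in CD133(positive)CD71(negative), with overlapping groups. Of 20 nuclear cofactors and repressors, 3 were called higher and none lower, among them the corepressor Tle2 at 39.5, 37.2 and 42.8 RPKM in CD133(high)CD71(low), against 23.0 and 26.1 RPKM in CD133(positive)CD71(negative). Cby1, an antagonist of β-catenin, averaged 12.8 ± 0.51 RPKM in CD133(high)CD71(low) and 8.09 ± 0.54 RPKM in CD133(positive)CD71(negative) (SD, n = 3 and 2). Of 11 planar polarity genes, Celsr1 was called higher, and Prickle1 and Prickle2 were called lower. Prickle2 had 0.584, 0.440 and 0.486 RPKM in CD133(high)CD71(low), against 1.68 and 1.99 RPKM in CD133(positive)CD71(negative), and reached the 1 RPKM mean only through CD133(positive)CD71(negative). Of 15 genes induced by Wnt in other tissues, 2 were called higher and none lower. Mmp7, a secreted protease, stood at 6.65, 5.68 and 8.22 RPKM in CD133(high)CD71(low), against 2.86 and 2.53 RPKM in CD133(positive)CD71(negative) (limma adjusted p = 0.0173). The other was Sox9, which is also one of the duct markers, at 65.5, 69.7 and 89.8 RPKM in CD133(high)CD71(low), against 36.2 and 44.4 RPKM in CD133(positive)CD71(negative).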

How the data were processed

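RNA from 5 libraries of sorted pancreas cells was analysed from 1 table of gene values per library. The values the authors deposited carry no unit in the labels and behave as RPKM. Low values times transcript length fall on whole multiples of a step: 54.8 to 69.5% of them lay no more than 0.05 reads off a whole number, where 10.0% would by chance. RPKM and FPKM cannot be told apart in this way, and too few values were whole to recover counts. The step gives the depths quoted, which are estimates. Per the submitters' processing notes, Partek and mm10 were used, with the version, the aligner and the annotation not given in the sources used here. The 4 numbered libraries list 18618 symbols and CD133(high)CD71(low) library 3 lists 22522, so gene models differ, and the 16992 common symbols were used. A row of library 3 with 74.2 M (M, 1e6) alignments names no gene and was left out. This number is above the 41.7 M reads estimated for the same library, and the reason was not tested.

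Values were tested as log2(RPKM + 1) in limma (version 3.58.1, R version 4.3.3), with group as the only term, moderated variances that follow a trend on mean level, and all 5 libraries in the fit. Genes with a mean of at least 1 entered, and p-values were adjusted by Benjamini-Hochberg over all of them, with 0.05 as threshold. The fit was tested on simulated data with 200 changed genes. With 5 libraries it recovered 37% of changes of 1 and 79% of changes of 2 on the log2(RPKM + 1) scale, and 6.5% of its calls were false. With the 4 numbered libraries these were 87, 99 and 2.1%. A gene that was not called can therefore still differ. Summaries and plots used Python 3.11.15, pandas 2.3.3, numpy 2.4.6 and matplotlib 3.10.9. Gene positions come from GENCODE on mm10 and upstream windows from RefSeq on GRCm38.p6. Approximate reads of low genes use the longest coding transcript, and 33 of 69 such values above 0 lay within 0.05 of a whole number. The labels number libraries 1 and 2 in both groups, but the deviations of same-numbered libraries correlated at -0.024 over 11769 genes, so they were not treated as pairs. The variance between libraries 1 and 2 over that of read sampling was 2.86 in CD133(high)CD71(low) and 3.09 in CD133(positive)CD71(negative), so none was taken for a duplicate.

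Every gene of the set is named. Of the further pathway genes, those named are, per role, up to 2 called higher and up to 2 called lower with the smallest adjusted p, or the 2 most abundant where none was called. The genes and lists were chosen with earlier results of these data known. Alternatives were another pseudocount, other filters, scaling, the replicate number as a block, and leaving out each library. Those for the further pathway genes were chosen after seeing the data.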

Additional observations from a re-analysis of the deposited data

How the results depend on the processing

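Counts of calls moved far more than the direction of single genes. With median-of-ratios scaling 312 of all genes were called higher, 3 genes of the Wnt and R-spondin set and 4 further pathway genes. With no filter 1726 of all genes (10.3%), 7 of the set and 15 further pathway genes were called lower. With a mean of at least 5 RPKM these were 315 of 7839 genes tested, 1 and 1. Without CD133(high)CD71(low) library 3 and with scaling, 1782 of all genes were called higher and 1933 lower, 12 and 4 of the set, and 18 and 15 further pathway genes. Leaving out each library in turn gave 0 to 4785 higher and 154 to 1425 lower over all genes, 0 to 18 higher and 0 to 4 lower in the set, and 0 to 42 higher and 0 to 13 lower among further pathway genes. The lowest counts came without a CD133(positive)CD71(negative) library, which leaves 1 library there that is assumed to vary like the other group, and the highest came without library 3. With the replicate number as a block in the 4 numbered libraries, 5275 of 11695 genes tested were called higher and 1543 lower, 19 and 4 of the set, and 43 and 13 further pathway genes. The block therefore gave counts close to those of the same libraries without it, and a call lost or gained there is no measure of strength. With scaling the differences of Lrp5 (-0.05), Sfrp1 (-0.13), Tcf7l1 (-0.10) and Axin2 (0.00) changed sign, and with both changes those of Wnt5a (-0.02), Sfrp1 (-0.08) and the kinase gene Csnk1a1 (-0.06). None of them was called in the fit where its sign changed. Lrp5 was called higher without library 3 when the values were not scaled. A pseudocount of 0.1 gave 7 higher and 2 lower in the set, and the matching share of all genes called is not given here, so these counts show nothing particular to the set. At an unadjusted limma p under 0.05 this pseudocount gave 13 higher and 2 lower, where 28.2% and 9.07% of all genes were. The cause of these shifts was not tested. Genes below 1 RPKM are limited by depth, since Lgr5 rests on 0 to 7 reads a library and Sp5 on 3 to 8.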

Other observations

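Within the CD133(high)CD71(low) population, library 3 was not uniformly higher than libraries 1 and 2. Its median difference from their mean was 0.19 on the log2(RPKM + 1) scale over the 31 tested genes of the set, and 0.25 over all genes tested. Genes of the destruction complex and several receptors stood well above, with a ratio of library 3 to the mean of libraries 1 and 2 of 1.94 for Gsk3b, 1.71 for Apc, 1.57 for Ctnnb1, 1.72 for Lgr4, 2.71 for Fzd3 and 2.24 for Wnt5a. Of the 8 called genes, Tnfrsf19 had a ratio of 1.39, Fzd8 of 1.16, Tcf7 of 1.15 and Wnt7b of 1.13. The ratio was 1.05 for Fzd5, 1.04 for Fzd1, 0.930 for Fzd4 and 0.898 for Wnt4. Fzd2 and Wnt9a lay lowest, at 0.763 and 0.746. These genes were chosen after their values were seen.

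The acinar marker list took 45.5, 45.8 and 25.1% of the summed RPKM of all common genes in CD133(high)CD71(low), against 51.4 and 48.9% in CD133(positive)CD71(negative). RPKM is scaled to the library total, and the part of the acinar share in the all-gene median difference of 0.31 was not tested.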
